A study of Mus musculus with 8 samples.

Results

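The effect of deleting RORα in hepatocytes was read in mice on the control diet (CD), from 4 liver RNA libraries that formed 2 groups. The genes described are those with more than 1 FPKM (fragments scaled by the length of the transcript and by the mapped reads of the library) in each of the 4 CD libraries, and 10056 of the 38283 genes in the deposited table met this rule. RORα LKO mice carried Cre recombinase under the albumin promoter together with a Rora gene whose exons 4 and 5 are flanked by loxP sites. Cells in which this promoter is active, hepatocytes above all, lose these exons. The RORα f/f littermates carried the same floxed gene without Cre. All animals were male C57BL/6 mice that began the CD at 8 weeks of age and ate it for 10 weeks. Each library was prepared from liver RNA of 2 mice combined, and each group had 2 libraries, so that a group rests on 2 values and the spread between animals within a pool cannot be seen. The same 2 genotypes on the high-fat diet (HFD), with 2 libraries each, served only to estimate the spread and to compare the genotype difference between the diets.

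RORα is a nuclear receptor that binds DNA as a monomer, at a half-site of the letters AGGTCA or GGGTCA that follows a stretch rich in A and T. It shares these sites with the REV-ERB repressors, and the alternation of both families at clock genes such as Arntl is part of the circadian oscillator of the liver. In the liver, RORα is also known for its place in lipid, bile acid and glucose metabolism and for crosstalk with the PPAR receptors, whose elements contain the same half-site.

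Between 10587 and 10694 genes exceeded 1 FPKM in a CD library. The second f/f CD library stood apart, since its summed FPKM was 983738 against 739213 to 806782 in the other 3, and the gene ENSMUSG00000093077 alone held 183794 FPKM in it. Spearman's rho over the 10056 genes was 0.987 between libraries of the same group for both groups and 0.980 to 0.984 between libraries of different groups, a description of libraries that share most of their transcripts. Alb, the albumin gene, was listed at 0 in the first LKO CD library and at 29902 FPKM in the second, although hepatocytes express it throughout, and it fell outside the rule. In the f/f CD libraries it was at 30089.3 and 30887.5 FPKM. On the HFD it was listed at 0 in both LKO libraries and in the second f/f library, so that the zeros were not limited to LKO. FPKM carry no read counts, and the depth behind a value is unknown here.

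Rora itself was at 7.96 and 8.18 FPKM in the LKO libraries and 8.85 and 8.59 in the f/f libraries on CD. The LKO libraries were both lower, with a log2 difference of -0.10 ± 0.07 (SE) and a limma p of 0.226. Exons 4 and 5 make up 538 of the 10878 bases of the annotated transcript with 11 exons, or 4.95%, and a transcript that lacks only these exons still counts towards the gene. The whole-gene value therefore checks the labels little, and each direction below rests on the labels of the libraries. In whole liver, fewer cells of a type and less RNA per cell cannot be told apart.

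The genotype difference on CD was small for most genes. On the log2(FPKM + 1) scale after quantile normalization, 8337 of the 10056 genes (82.9%) differed by less than 0.25 between the group means, the 5th and 95th percentiles were -0.32 and 0.33, and 43 genes differed by 1 or more. Log2 differences are given on this scale as LKO minus f/f ± SE, with 2 libraries per group. The values were tested with limma in 1 fit of all 8 libraries, and p-values were adjusted by the Benjamini-Hochberg method over the 11634 genes that exceeded 1 FPKM in any library. Of the 10056 genes, 1 passed an adjusted p of 0.05, and it was Lpin1, whereas 2 of all 11634 genes (0.0172%) did. At an unadjusted p of 0.05, 645 genes (6.41%) were higher and 631 (6.27%) lower in the LKO libraries, and over all genes tested the shares were 6.15% and 6.12%.

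A gene is called separated here when both LKO libraries lay on 1 side of both f/f libraries in the deposited FPKM. Of the 10056 genes, 2092 (20.8%) were separated with higher and 2378 (23.6%) with lower values in the LKO libraries, beside 20.8% and 22.6% of all genes tested, so that separation alone says little about a gene. Separation together with a log2 difference of at least 0.5 was met by 147 genes (1.46%) in the higher and 133 (1.32%) in the lower direction, beside 1.87% and 1.69% of all genes tested. When an unadjusted p under 0.05 was required as well, 121 genes were higher and 115 lower, of which 10 and 12 were gene models without a name of their own. These 236 genes are called the CD genes below. An exact permutation test of 2 libraries against 2 cannot give a p under 0.333, so that single genes were tested only within the fit.

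**Figure D1:**
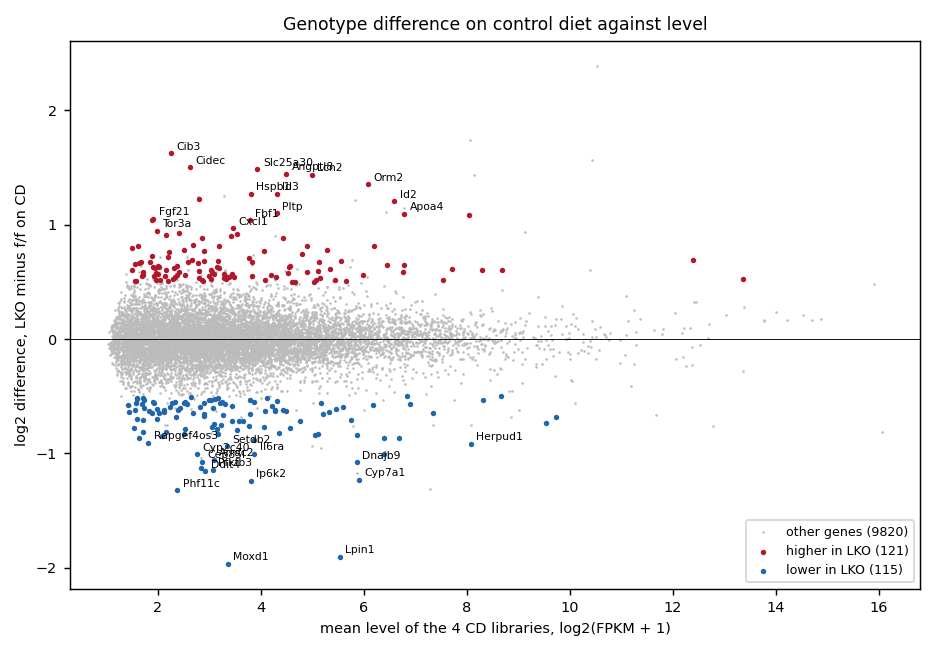
Each point is 1 of the 10056 genes, with the mean level of the 4 CD libraries as log2(FPKM + 1) on the horizontal axis and the log2 difference of LKO minus f/f on the vertical axis; red and blue points are the 121 higher and 115 lower CD genes and grey points are all others. Lpin1 lies far below the other genes of its level, at -1.91.

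Lpin1 encodes lipin 1, a phosphatidate phosphatase that makes diacylglycerol for triglyceride synthesis and also acts as a nuclear coregulator of fatty acid oxidation genes. It was at 17.5 and 18.8 FPKM in the LKO libraries and 68.5 and 77.3 in the f/f libraries, and the LKO libraries held about 0.249 times the f/f level. The log2 difference was -1.91 ± 0.12 (SE), and with limma's adjusted p of 0.00631 Lpin1 fell in the LKO livers. On the HFD it was at 27.6 and 34.2 FPKM in the LKO and 68.8 and 77.4 in the f/f libraries, so that the f/f level was alike on both diets. The log2 difference there was -1.22, with an adjusted p of 0.0457 by limma. In a fit of the 4 CD libraries alone, no gene passed the adjusted threshold, and Lpin1 had an unadjusted p of 4.35e-05. Lpin2, a second lipin that is abundant in liver, was at 54.5 and 92.4 against 118 and 142 FPKM in the LKO and f/f libraries, with a log2 difference of -0.86 ± 0.22 and an unadjusted p of 0.0055. Without the first LKO CD library Lpin2 differed by -0.51. Of the 6 lipins and lipid phosphate phosphatases in the list, these 2 were lower and none was higher at an unadjusted p of 0.05. Over all 10056 genes, 6.27% were lower and 6.41% higher at this p.

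The gene lies on the minus strand of chromosome 12, at chr12:16535669-16610966 in GRCm38. The 250 bases before its RefSeq start, chr12:16610967-16611216 on the minus strand of GRCm38.p6, are shown because Lpin1 is the gene that passed the adjusted test, with the half-site that begins 74 bases before the start in capitals.
Lpin1 promoter: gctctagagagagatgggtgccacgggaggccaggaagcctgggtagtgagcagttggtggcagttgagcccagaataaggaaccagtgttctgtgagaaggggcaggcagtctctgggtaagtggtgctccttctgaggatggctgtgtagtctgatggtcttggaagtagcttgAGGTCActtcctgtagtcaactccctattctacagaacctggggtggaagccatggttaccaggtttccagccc
Promoters were searched on both strands in windows of 250 bases before to 50 after the start, for the 30 leading genes, Lpin1 among them, and the 12 clock genes described below, of which 35 of 42 matched the RefSeq table with 44 promoters. AGGTCA or GGGTCA occurred in 6 of the 44 promoters (13.6%), beside 27.5% of all 32851 promoters. None of the 44 held this half-site directly after AANT, the longer element of a ROR monomer, which 143 of all promoters (0.435%) hold. CACGTG, the E-box bound by CLOCK and BMAL1, occurred in 7 (15.9%) beside 7.15% of all, and the D-box letters TTATGCAA or TTATGTAA in 2 (4.55%) beside 1.66%. Both D-box promoters belonged to the clock genes Per1 and Per3. The E-boxes lay in promoters of the clock genes Ciart, Cry1 and Per1 and of Dnajb9, Fgf21, Il6ra and Pfkfb3. Clock genes entered the search whatever their values, so these shares are not those of the leading genes alone. All these matches describe letters in short windows and say nothing of binding.

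Besides Lpin1, the 15 leading genes with lower values came from several functions. Moxd1, a monooxygenase-like protein, differed by -1.96 ± 0.54, but its values of 1.23 and 5.55 against 9.08 and 21.1 FPKM in the LKO and f/f libraries varied within both groups. Phf11c was at 2.04 and 1.83 against 7.61 and 5.3 FPKM and Setdb2, a histone methyltransferase gene near it on chromosome 14, was at 6.44 and 5.39 against 13.8 and 11.1 FPKM, with log2 differences of -1.32 ± 0.15 and -0.94 ± 0.12. On the HFD both genes lay below their f/f CD values in all 4 libraries, and Phf11c was at 2.09 to 2.21 FPKM. Il6ra, which encodes the ligand-binding chain of the interleukin-6 receptor, was at 8.18 and 9.39 against 18.6 and 18.7 FPKM and differed by -1.001 ± 0.12. Ip6k2, an inositol hexakisphosphate kinase, was at 6.27 and 8.35 against 17.1 and 20.2 FPKM and differed by -1.24 ± 0.21.

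The remaining leading genes with lower values were Cyp7a1, Ddit4, Pfkfb3, Dnajb9, Herpud1 and Cyp2c40, which are described with their pathways, and Cep85l, Arrdc2 and Rapgef4os3. Arrdc2, an arrestin-domain protein, was at 5.09 and 3.93 against 12.3 and 8.76 FPKM in the LKO and f/f libraries. Cep85l was at 3.79 and 3.55 against 9.16 and 8.45 FPKM. Rapgef4os3 is annotated antisense to another gene and the strand of the reads is not given in the sources used here, so that its 1.21 and 1.72 against 3.6 and 3.59 FPKM cannot be assigned to it with certainty.

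Among separated genes with higher values and an unadjusted p under 0.05, the largest difference was that of Cib3, a calcium- and integrin-binding protein, at 7.07 and 5.41 against 1.42 and 1.17 FPKM in the LKO and f/f libraries. Its log2 difference was 1.62 ± 0.17, the unadjusted p was 3.09e-05 and the adjusted p by limma 0.0718. Cidec, which enlarges lipid droplets by fusing them, was at 5.67 and 10.8 against 1.96 and 2.24 FPKM and differed by 1.502 ± 0.26. Slc25a30, a mitochondrial carrier, was at 17.4 and 25.8 against 6.16 and 7.89 FPKM and differed by 1.48 ± 0.30. Angptl8, an insulin-responsive inhibitor of lipoprotein lipase, was at 33.1 and 30.3 against 13.03 and 9.56 FPKM and differed by 1.45 ± 0.13, with an adjusted p of 0.0575 by limma. Separation on CD was a condition for choosing these 4 genes and adds no support. On the HFD the difference of Cidec was 1.70 while those of the other 3 lay between -0.26 and 0.23.

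Id2 and Id3, which inhibit helix-loop-helix factors, were among them. Id2 was at 151 and 115 against 70.2 and 46.2 FPKM in the LKO and f/f libraries and Id3 at 35.98 and 18.3 against 13.01 and 8.05 FPKM, with log2 differences of 1.20 ± 0.30 and 1.27 ± 0.37. Hspb1, a small heat shock protein, was at 17.8 and 19.4 against 9.55 and 5.36 FPKM, with a difference of 1.27 ± 0.27. Tor3a, an ATPase of the endoplasmic reticulum, was at 4.02 and 4.48 against 1.37 and 1.9998 FPKM, and Fbf1, a protein of the ciliary base, at 9.73 and 26.6 against 8.89 and 6.23 FPKM, where 1 LKO library lay close to the f/f libraries. Lcn2, Orm2, Cxcl1, Pltp, Apoa4 and Fgf21 complete the 15 and follow with their groups.

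**Figure D2:**
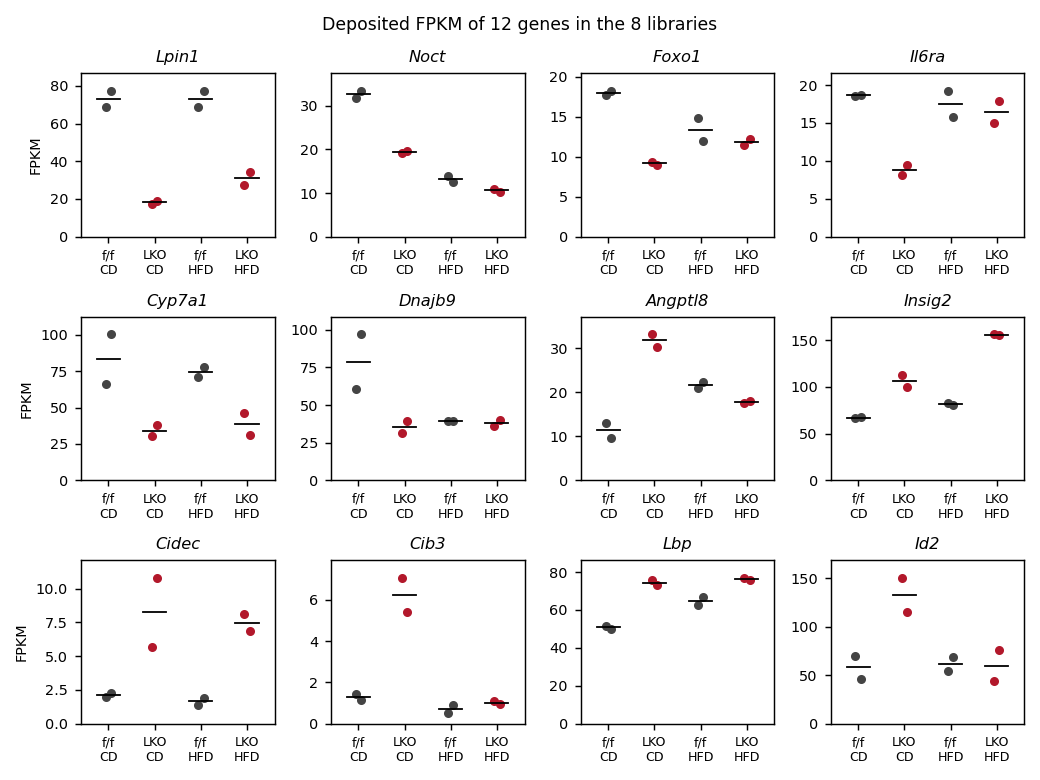
Deposited FPKM of 12 genes in each of the 8 libraries, with a point for each library, a line at the mean of 2 and a vertical axis from 0 for each gene; grey marks f/f and red LKO. The 2 LKO CD libraries lie apart from the 2 f/f CD libraries in every panel, which was a condition for naming the leading genes among them. Lpin1 is at 17.5 and 18.8 against 68.5 and 77.3.

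RORα acts on the clock through its competition with REV-ERB, and 12 of the 15 core clock genes were above 1 FPKM in all CD libraries. Arntl, the best known ROR target of the clock, did not meet the rule, at 0.456 and 0.219 against 0.587 and 0.535 FPKM in the LKO and f/f libraries. Of the 12, 3 were lower and 0 higher at an unadjusted p of 0.05, beside 6.27% and 6.41% of all 10056 genes. All 3 were among the 6 repressors of the E-box loop in the list. Between 1 and 3 passed with 1 library left out. Ciart, also called CHRONO, was at 8.82 and 10.5 against 17.8 and 14.3 FPKM, with a log2 difference of -0.65 ± 0.15 and an unadjusted p of 0.00368. Per1 was at 7.55 and 10.7 against 13.2 and 12.4 FPKM and Per2 at 4.78 and 5.87 against 6.38 and 6.92 FPKM, with differences of -0.45 ± 0.16 and -0.27 ± 0.10. Without the first LKO CD library, the differences of Per1 and Per2 were -0.22 and -0.14. Cry1 was also separated, at 1.55 and 1.99 against 2.25 and 2.79 FPKM, with an unadjusted p of 0.0715.

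The other core clock genes differed less. Per3 was at 7.88 and 10.6 against 8.8 and 8.99 FPKM in the LKO and f/f libraries and Cry2 at 9.73 and 10.6 against 10.2 and 11.5 FPKM, both with overlap. The REV-ERB genes were separated by small amounts, with Nr1d1 at 23.7 and 23.8 against 28.1 and 26.5 FPKM and Nr1d2 at 26.004 and 27.9 against 29.3 and 29.6 FPKM, and their unadjusted p-values were 0.292 and 0.21. Clock, the only activator of the loop above the limit, was at 6.85 and 6.74 against 5.21 and 6.67 FPKM, with 1 f/f library just below both LKO libraries. The time of day at which livers were taken is not given per library in the labels, and its part in these values was not tested.

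Ciart and Per1 are shown as clock repressors whose promoters held E-boxes, a choice made after the values and matches were seen. Ciart is read on the minus strand, chr3:95882229-95882478, with E-boxes in capitals that begin 116, 58 and 44 bases before the start. Per1 is read on the plus strand, chr11:69098699-69098948, with an E-box beginning 166, a half-site on the opposite strand beginning 137 and a D-box beginning 24 bases before the start, all in capitals.
Ciart promoter: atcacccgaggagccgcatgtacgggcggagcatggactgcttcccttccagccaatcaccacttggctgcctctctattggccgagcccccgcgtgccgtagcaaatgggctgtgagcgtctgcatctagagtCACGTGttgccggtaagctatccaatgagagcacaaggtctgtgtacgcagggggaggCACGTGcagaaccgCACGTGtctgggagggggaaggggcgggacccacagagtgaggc
Per1 promoter: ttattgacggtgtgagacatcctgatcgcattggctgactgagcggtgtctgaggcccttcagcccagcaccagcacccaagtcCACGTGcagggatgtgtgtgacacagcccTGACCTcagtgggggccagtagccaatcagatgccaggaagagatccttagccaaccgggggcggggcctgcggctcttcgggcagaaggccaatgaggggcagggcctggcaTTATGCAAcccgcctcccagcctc

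Among 22 clock-controlled output genes, 4 were lower and 1 was higher at an unadjusted p of 0.05, beside 6.27% and 6.41% of all 10056 genes, and 2 were lower without the first f/f CD library. Noct, a phosphatase with a strong daily rhythm in liver, was at 19.1 and 19.7 FPKM in the LKO libraries and 31.8 and 33.5 in the f/f libraries, with a log2 difference of -0.71 ± 0.08 and limma's unadjusted p of 3.91e-05. Usp2, a deubiquitinase, was at 10.1 and 14.3 against 22.02 and 17.1 FPKM, and Hlf, a D-box activator, at 20.5 and 18.5 against 25.7 and 22.7 FPKM. The other lower member was Tsc22d3, with a log2 difference of -0.87, which is also in the list of glucocorticoid targets below. Dbp, the D-box factor most often used to read the clock, was separated at 28.9 and 36.8 against 45.03 and 40.5 FPKM, with an unadjusted p of 0.0528. Bhlhe40, a repressor of E-box genes, was the higher member, at 60.9 and 53.1 against 52.4 and 30.9 FPKM, close to overlap. The median over the 22 genes was -0.17, beside -0.00255 over all 10056 genes.

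Lipid droplet proteins had higher values in the LKO libraries. Of the 13 members measured, 7 were separated higher and 0 lower, and 5 were higher at an unadjusted p of 0.05, with a median of 0.24. Over all 10056 genes, 20.8% were separated higher and 6.41% were higher at this p. G0s2, the inhibitor of the triglyceride lipase ATGL, was at 228 and 277 FPKM in the LKO libraries and 175 and 151 in the f/f libraries, with a log2 difference of 0.61 ± 0.10. Fitm1, a protein of droplet formation, was at 39.5 and 34.3 against 23.8 and 17.8 FPKM and differed by 0.82 ± 0.18. Plin2, the main coat protein of droplets in hepatocytes, was at 306 and 456 against 213 and 272 FPKM and differed by 0.60 ± 0.20, whereas Plin3 was at 13.1 and 13.7 against 10.99 and 11.7 FPKM and differed by 0.25 ± 0.07. Cidec, described above, was the fifth. Between 4 and 7 members were higher at this p when 1 library was left out. Of the 9 adipocyte markers read beside them, Cidec, Car3, Fabp4 and Lpl were above 1 FPKM in all CD libraries, 3 of these 4 had higher means in the LKO libraries, Lep and Plin1 were listed at 0 in all 4, and the sums were 1582 and 1841 FPKM in the LKO and 1569 and 1596 in the f/f libraries. Their part in the differences was not tested.

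Regulators of sterol and fatty acid synthesis differed as well. Insig2, which holds the SREBP precursors in the endoplasmic reticulum and is a known ROR target, was at 113 and 99.97 FPKM in the LKO libraries and 66.5 and 67.9 in the f/f libraries, with a log2 difference of 0.65 ± 0.08 and an unadjusted p of 0.00011. Its counterpart Scap, the escort of SREBP, was at 32.2 and 42.6 against 25.6 and 27.4 FPKM, and Srebf1, which encodes SREBP-1, at 59.6 and 54.7 against 39.3 and 31.9 FPKM, with differences of 0.502 ± 0.13 and 0.68 ± 0.13. In the list of 7 genes these 3 were higher and none lower at an unadjusted p of 0.05, beside 6.41% and 6.27% of all 10056 genes.

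The enzymes downstream were less clear. Of 14 genes of de novo lipogenesis, 7 were separated higher and 0 lower, beside 20.8% and 23.6% of all 10056 genes, and 1 was higher at an unadjusted p of 0.05, a share near the 6.41% of all genes. That gene was Me1, the malic enzyme that supplies NADPH, at 95.7 and 89.2 against 51.1 and 53.4 FPKM, with a difference of 0.81 ± 0.22. Fasn, the fatty acid synthase, was separated at 67.7 and 54.6 against 45.2 and 45.8 FPKM, with an unadjusted p of 0.0976, and Acly and Acaca overlapped. Scd1, which has close paralogs, was at 1676 and 1516 against 696 and 1437 FPKM, where the f/f libraries differed from each other more than the groups did. Elovl2, an elongase of polyunsaturated fatty acids, was at 170.4 and 205 against 152 and 136 FPKM. In triglyceride synthesis, Gpat3 was at 6.08 and 8.42 against 4.01 and 3.24 FPKM and Agpat2 at 93.2 and 100.1 against 76.4 and 82.1 FPKM, with differences of 0.82 ± 0.18 and 0.27 ± 0.09.

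Proteins of lipoprotein particles and their handling included 5 higher genes and 1 lower gene of 21 at an unadjusted p of 0.05, beside 6.41% and 6.27% of all 10056 genes, and 3 higher genes without the second f/f CD library. Besides Angptl8, Pltp, the phospholipid transfer protein, was at 26.6 and 24.9 against 8.83 and 15.4 FPKM in the LKO and f/f libraries and differed by 1.10 ± 0.29. Apoa4, an apolipoprotein of triglyceride-rich particles, was at 166 and 131 against 65.7 and 72.9 FPKM and differed by 1.09 ± 0.31. The very abundant Apoe, at 10699 and 11090 against 10149 and 10317 FPKM, and Apoa1, at 5084 and 6290 against 5259 and 5080 FPKM with overlap, passed this p only after quantile normalization. Their log2 differences were 0.53 and 0.33 with it and 0.09 and 0.13 without it, where the unadjusted p-values were 0.347 and 0.300. Lipg, the endothelial lipase, was the lower gene, at 9.86 and 9.33 against 12.7 and 15.3 FPKM.

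Oxidation of fatty acids differed little. Over all 10056 genes, 6.41% were higher at an unadjusted p of 0.05. The shares of the mitochondrial and peroxisomal lists, 5% and 5.26%, were near it. Of 20 mitochondrial genes, 1 was higher at an unadjusted p of 0.05, and this was Acads, at 67.4 and 70.6 against 57.6 and 55.7 FPKM, and of 19 peroxisomal genes it was Acaa1a, at 84.7 and 104 against 76.1 and 77.8 FPKM. Ketone body genes included 3 higher members of 7, among them Bdh1 at 114 and 116 against 107 and 95.9 FPKM and the monocarboxylate carrier Slc16a1 at 13.5 and 13.5 against 8.89 and 12.1 FPKM, and without the first LKO CD library 0 of them passed. The PPAR receptors, which share the half-site, did not pass this p. Ppara was at 43.6 and 55.5 against 48.8 and 47.3 FPKM, Ppard at 2.08 and 1.86 against 2.11 and 1.87 FPKM and Pparg at 4.55 and 4.53 against 3.83 and 4.29 FPKM, with log2 differences of 0.07 ± 0.13, -0.04 ± 0.11 and 0.12 ± 0.08. Ppargc1a, the coactivator of oxidative and gluconeogenic genes, was lower at 1.96 and 2.17 against 3.09 and 3.91 FPKM, with a difference of -0.55 ± 0.11.

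In bile acid synthesis, Cyp7a1, the rate-limiting enzyme of the classic pathway, was at 30.3 and 37.8 FPKM in the LKO libraries and 66.3 and 100.4 in the f/f libraries. Its log2 difference was -1.23 ± 0.26, with an unadjusted p of 0.00217, and on the HFD it was -0.94 without overlap. Cyp7b1, of the alternative pathway and a proposed ROR target, was at 85.3 and 162 against 208 and 193 FPKM, with a difference of -0.76 ± 0.34 and an unadjusted p of 0.0628. Hsd3b7, which acts after both, was higher at 213 and 191 against 168 and 172 FPKM, and 1 of 14 genes of the list was higher and 1 lower, shares near those of all 10056 genes. Abcc2, an exporter to bile, was lower at 117 and 113 against 138 and 146 FPKM, and Fgfr4, the receptor of the intestinal bile acid signal, higher at 11.3 and 10.4 against 8.97 and 8.58 FPKM.

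Genes of glucose output and insulin action lay in both directions. Of 16 genes of insulin signaling, 3 were lower and 1 higher at an unadjusted p of 0.05, with a median of 0.05, and 2 were lower without the first f/f CD library. Of 33 genes of glycolysis and gluconeogenesis, 4 were lower and 1 higher, 9 were separated in each direction and the median was 0.06. Over all 10056 genes, 6.27% were lower and 6.41% higher at this p. Foxo1, the factor that insulin excludes from the nucleus, was at 9.39 and 8.998 FPKM in the LKO libraries and 17.7 and 18.3 in the f/f libraries, with a log2 difference of -0.88 ± 0.10 and an unadjusted p of 6.19e-05. Foxo3 was at 8.52 and 7.56 against 10.7 and 10.7 FPKM, and Pik3r1, the regulatory subunit of PI3 kinase, at 12.9 and 12.9 against 16.1 and 15.9 FPKM. Pfkfb3 and Pfkfb1, which set the level of fructose 2,6-bisphosphate, were at 4.8 and 3.68 against 8.99 and 12.2 FPKM and 19.5 and 20.2 against 25.01 and 23.6 FPKM, with differences of -1.14 ± 0.20 and -0.26 ± 0.06. Ppp1r3b, which targets a phosphatase to glycogen, was at 39.5 and 34.2 against 63.96 and 50.8 FPKM. Of the gluconeogenic enzymes, G6pc was at 262 and 297 against 246 and 298 FPKM with overlap, and Pck1 was separated at 746 and 1058 against 1173 and 1178 FPKM with an unadjusted p of 0.166. Socs3, which restrains insulin and cytokine signaling, was higher at 4.1 and 3.24 against 1.55 and 1.97 FPKM.

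Acute-phase proteins, which hepatocytes secrete after interleukin-6 and related signals, were the list with the largest positive median of the 48 pathway lists. Of the 23 members, 20 were separated higher and 0 lower, the median log2 difference was 0.34, and 6 were higher and 0 lower at an unadjusted p of 0.05. Over all 10056 genes, 20.8% were separated higher and 6.41% were higher at this p. Lbp, which binds bacterial lipopolysaccharide, was at 75.7 and 73.3 FPKM in the LKO libraries and 51.7 and 50.1 in the f/f libraries, with a difference of 0.56 ± 0.06 and an unadjusted p of 6.51e-05. Haptoglobin (Hp) was at 2633 and 2365 against 2047 and 1599 FPKM and Lrg1 at 468 and 511 against 335 and 315 FPKM. Lcn2, which withholds iron siderophores from bacteria, was at 56.2 and 33.7 against 21.9 and 11.05 FPKM, and Orm2, an orosomucoid, at 129.8 and 65.3 against 37.3 and 33.3 FPKM, with differences of 1.44 ± 0.53 and 1.35 ± 0.42.

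Saa1 and Saa2, near-identical acute-phase apolipoproteins, had higher values that did not pass an unadjusted p of 0.05. Saa1 was at 725 and 726 against 473 and 299.9 FPKM and Saa2 at 414 and 402 against 142 and 161 FPKM, with unadjusted p-values of 0.108 and 0.0665, and reads of the Saa and Orm copies may have been split between them. Cxcl1, a neutrophil chemokine, was higher at 14.8 and 12.2 against 6.68 and 6.13 FPKM. The receptor chain Il6ra was lower in the same libraries, as given above. Without the second f/f CD library, 20 of the 23 were separated higher, beside 33.5% of all 10056 genes, and 2 passed an unadjusted p of 0.05. On the HFD the median of the list was -0.06, and the difference between the diets passed an unadjusted p of 0.05 for 7 of the 23.

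Targets of glucocorticoids had mostly lower values in the LKO libraries. Of the 17 members, 8 were lower and 2 higher at an unadjusted p of 0.05, beside 6.27% and 6.41% of all 10056 genes, and the median was -0.20. Lpin1 is a member of this list too. Tsc22d3, also known as GILZ, was at 59.5 and 57.1 FPKM in the LKO libraries and 107 and 108 in the f/f libraries, with a log2 difference of -0.87 ± 0.14. Ddit4, an inhibitor of mTORC1, was at 4.02 and 3.34 against 10.7 and 8.22 FPKM and differed by -1.16 ± 0.24. Tat, the tyrosine aminotransferase, was at 480.4 and 586 against 876 and 1036 FPKM, and Fkbp5, a chaperone that restrains the glucocorticoid receptor, at 13.8 and 14.2 against 21.2 and 23.8 FPKM, with differences of -0.74 ± 0.18 and -0.62 ± 0.18.

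Errfi1, an inhibitor of the EGF receptor, was at 376 and 431 against 518 and 552 FPKM, and Per1 and Pik3r1 make up the 8. The 2 higher members were Lcn2 and Dusp1, a phosphatase of MAP kinases, which was at 28.2 and 28.8 against 20.98 and 19.3 FPKM. The receptor gene Nr3c1 was at 13.4 and 13.6 against 13.3 and 12.3 FPKM, with a difference of 0.10 ± 0.08. Between 5 and 8 members were lower at this p when 1 library was left out, the fewest without the second f/f CD library. On the HFD, the difference of Fkbp5 was -1.05, whereas those of Tsc22d3, Ddit4 and Tat were -0.04, 0.03 and 0.05.

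Genes of the unfolded protein response, which adjusts the folding capacity of the endoplasmic reticulum, had lower values. Of the 22 members, 13 were separated lower and 0 higher, beside 23.6% and 20.8% of all 10056 genes, and 5 were lower at an unadjusted p of 0.05, beside 6.27%, with a median of -0.15. Dnajb9, a cochaperone of BiP, was at 31.5 and 39.3 FPKM in the LKO libraries and 60.7 and 97.1 in the f/f libraries, with a log2 difference of -1.08 ± 0.22. Herpud1, a component of the degradation complex, was at 155 and 215 against 319.8 and 386 FPKM and differed by -0.92 ± 0.22. Manf was at 32.3 and 46.2 against 58.1 and 73.7 FPKM, Syvn1 at 23.4 and 31.6 against 33.5 and 51.01 FPKM and Atf6, a sensor of the response, at 13.6 and 13.6 against 15.5 and 15.8 FPKM.

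Hspa5, which encodes BiP itself, was separated at 149 and 199.8 against 202 and 309 FPKM, with an unadjusted p of 0.0586, and Xbp1 overlapped at 84.6 and 67.4 against 62.7 and 74.9 FPKM. Without the second f/f CD library, separation was easier to meet, and 36.5% of all 10056 genes were separated lower, against 23.6% with both. For Dnajb9, Hspa5, Syvn1 and Hyou1 the second f/f CD library was well above the first, and without it 2 genes of the list were lower at an unadjusted p of 0.05 and 14 were separated lower. Of 22 heat shock proteins and cochaperones, 6 were lower and 1 was higher at this p, beside 6.27% and 6.41% of all genes, and 2 were lower without the second f/f or without the first LKO CD library. Dnaja1 was at 94.9 and 93.9 against 131 and 135 FPKM and Dnajb4 at 15.5 and 16.3 against 21.7 and 22.6 FPKM, both without overlap, with differences of -0.502 ± 0.09 and -0.43 ± 0.07.

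**Figure D3:**
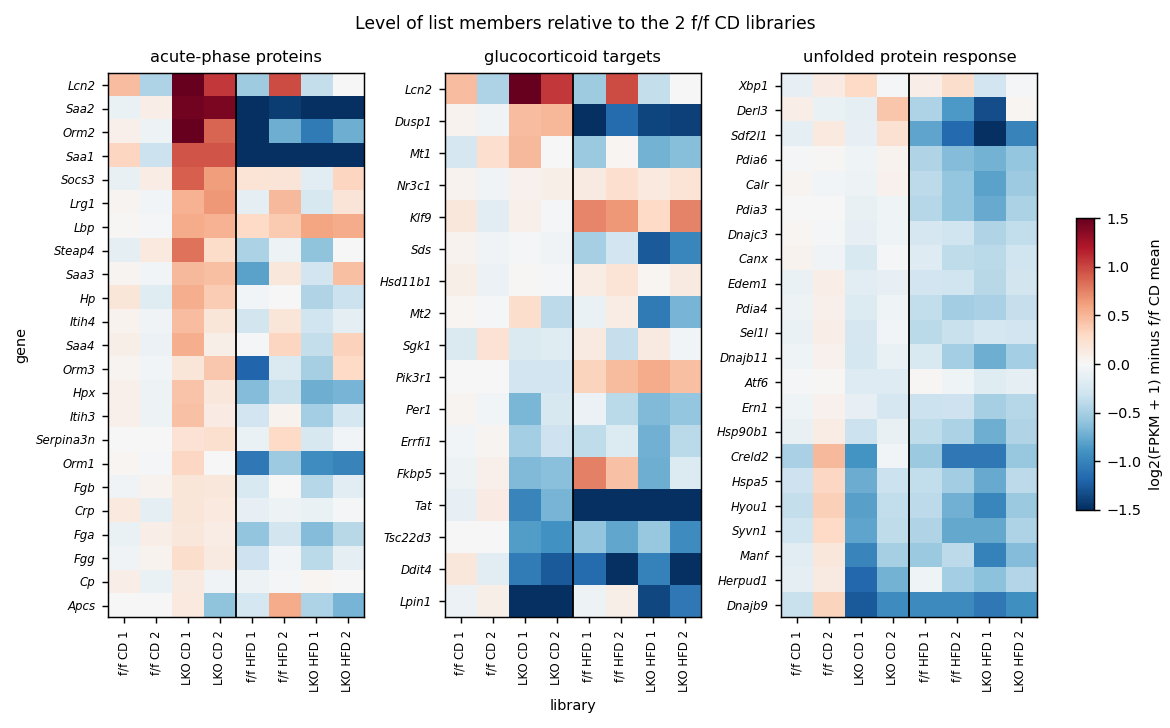
Colour gives log2(FPKM + 1) of each list member in each of the 8 libraries minus the mean of the 2 f/f CD libraries, with the scale ending at 1.5 in both directions and a line between the diets. Left of the line, acute-phase genes are mostly red in both LKO libraries, whereas Lpin1, Ddit4 and Tsc22d3 in the second panel and Dnajb9 and Herpud1 in the third are blue.

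Genes of drug metabolism included lower and higher members. Of 6 xenobiotic receptors, 2 were lower at an unadjusted p of 0.05, and with 1 library left out 1 to 5 were. Ahr, the receptor of aryl hydrocarbons, was at 5.39 and 5.37 FPKM in the LKO libraries and 10.97 and 10.1 in the f/f libraries, with a log2 difference of -0.83 ± 0.20. Nr1i3, which encodes CAR, was at 121 and 145 against 209.9 and 149.7 FPKM, close to overlap. Of the 33 cytochrome P450 genes of families 1 to 3, 4 were lower and 2 higher at this p, beside 6.27% and 6.41% of all 10056 genes, so that the share of higher genes was near that of all genes. Without the first LKO or the first f/f CD library 2 were lower. Cyp2b10, the usual CAR target, was at 6.13 and 5.7 against 10.2 and 11.4 FPKM and Cyp2c40 at 3.27 and 3.78 against 9.21 and 7.06 FPKM, with differences of -0.76 ± 0.17 and -1.01 ± 0.21. Cyp2c37 was at 118 and 131 against 222 and 173 FPKM, Cyp2a5 at 320.1 and 359 against 491 and 454 FPKM and Cyp3a59, a higher gene, at 32.1 and 21.5 against 13.3 and 14.96 FPKM, and reads of these families can be shared between near-identical copies, which leaves each of them uncertain. Markers of pericentral hepatocytes, the zone where many of these enzymes are made, had lower values in the same libraries. Their sum over 9 genes was 5420 and 5727 FPKM in the LKO and 6155 and 6498 in the f/f libraries. Of the 9, 8 had lower means and 6 were separated lower, beside 23.6% of all 10056 genes, and the median was -0.14. Lgr5 and Cyp2a5, which is also in the cytochrome P450 list, were lower at an unadjusted p of 0.05, and 0 were without the second LKO or the second f/f CD library. The sum of 10 periportal genes was 4150 and 4336 FPKM in the LKO and 4691 and 4606 in the f/f libraries. In this list, 5 genes had higher and 5 lower means, 2 were separated in each direction, and the median was 0.0004. The part of liver zones in these values was not tested.

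Among 20 hepatokines, 4 were higher and 0 lower at an unadjusted p of 0.05, beside 6.41% and 6.27% of all 10056 genes, and 2 were higher without the second f/f CD library. Fgf21, a fasting and stress hormone of the liver, was at 4.7 and 3.6 FPKM in the LKO libraries and 1.5 and 1.32 in the f/f libraries, with a log2 difference of 1.05 ± 0.24. Inhbe, which encodes activin E, was at 52.1 and 44.2 against 29.3 and 26.8 FPKM and differed by 0.78 ± 0.11, and Inhbc was at 32.1 and 36.1 against 26.9 and 25.1 FPKM. The amino acid response genes Asns and Atf5 were higher at 5.84 and 4.95 against 3.78 and 3.78 FPKM and 108 and 115 against 84.7 and 83.6 FPKM. In the list of 12 genes of the integrated stress response, these 2 and Fgf21 were higher and 0 were lower at this p, and 1 was higher without the first f/f CD library.

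Of 19 hepatocyte transcription factors, 4 were higher and 2 lower at an unadjusted p of 0.05, beside 6.41% and 6.27% of all 10056 genes, with a median of 0.01. With 1 library left out, 2 to 5 were higher and 0 to 2 lower. The fewest higher genes were found without either LKO CD or the second f/f CD library, and 0 were lower without the first LKO CD, the first f/f CD or either LKO HFD library. Cebpa was at 100.1 and 93.7 FPKM in the LKO libraries and 73.6 and 65.9 in the f/f libraries and Tbx3 at 11.6 and 8.62 against 5.96 and 5.79 FPKM, with log2 differences of 0.46 ± 0.08 and 0.68 ± 0.17. Among genes of growth arrest, Trp53inp1, a target of p53, was at 24.4 and 22.8 against 42.7 and 44.4 FPKM and differed by -0.83 ± 0.15, and Ccng2 and Ccnd1 were lower at 4.29 and 4.62 against 5.48 and 5.43 FPKM and 3.34 and 3.85 against 4.3 and 7.45 FPKM. Bhmt, an abundant enzyme of methionine synthesis, was at 605 and 656 against 911 and 1209 FPKM, and Trf, which encodes transferrin, at 6098 and 5604 against 5256 and 4458 FPKM, with differences of -0.68 ± 0.19 and 0.69 ± 0.26. Trf, among the most abundant genes, differed by 0.27 without quantile normalization. The gene model Gm10680, among the abundant genes, was at 396 and 323 against 132 and 198 FPKM.

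Several large programs of the liver had shares of called genes below those of all genes tested. At an unadjusted p of 0.05, 1 of 50 oxidative phosphorylation genes, 1 of 36 complement and coagulation genes, 1 of 23 interferon-responsive genes and 0 of 19 major urinary proteins passed. Their median log2 differences were 0.03, 0.03, -0.03 and -0.16, and urinary protein genes are near-identical copies. Of 13 genes listed as ROR targets of liver, 2 were higher (Insig2 and Cyp4a14, the latter at 167 and 272 against 139 and 156 FPKM) and 1 was lower (Cyp2a5), with a median of 0.02, beside 6.41% and 6.27% of all 10056 genes. Cyp4a14 differed by 0.52, and by 0.21 without the second LKO CD library.

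**Figure D4:**
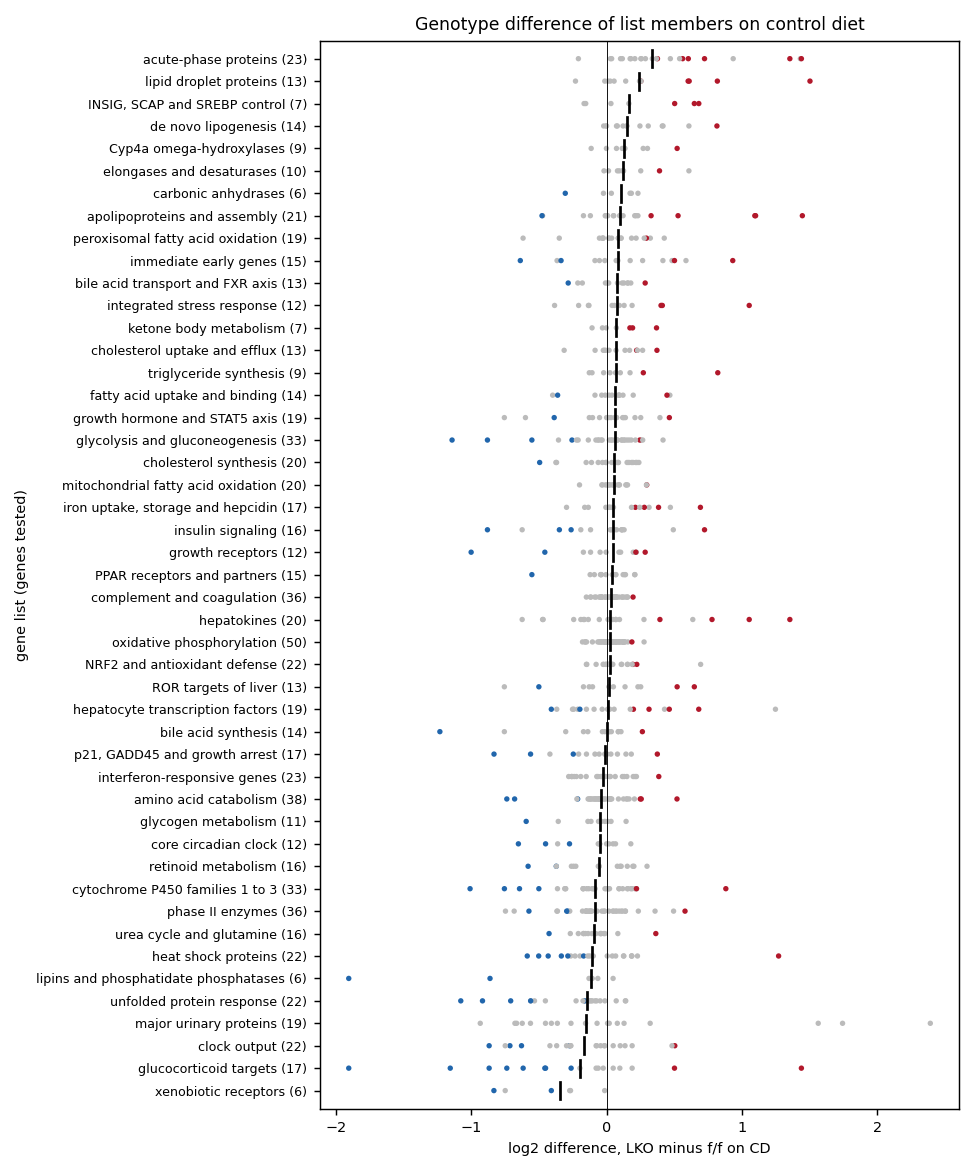
Each row is 1 of the pathway lists with at least 5 genes tested, each point 1 gene at its log2 difference of LKO minus f/f on CD, and each black bar the median; red and blue points have an unadjusted limma p under 0.05. Among these lists, which leave out the cell markers, acute-phase proteins have the highest median at 0.34 and xenobiotic receptors the lowest at -0.34.

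Markers of other liver cells were read in the same libraries. The summed FPKM of 14 Kupffer cell genes was 159 to 174 in the LKO and 175 to 212 in the f/f libraries. Of the 13 above the limit, 7 were separated lower, and the median was -0.20, or -0.07 without the second f/f CD library. Of these 7, Timd4 passed an unadjusted p of 0.05 at 3.3 and 2.97 against 3.98 and 4.52 FPKM. Over all 10056 genes, 23.6% were separated lower and 6.27% were lower at this p. The sum of 14 stellate cell genes was 73.3 to 104 in the LKO and 117 to 130 in the f/f libraries, and Rgs5 and Ecm1 were lower at 5.22 and 4.93 against 6.97 and 6.75 FPKM and 34.3 and 20.6 against 53.1 and 35.4 FPKM. Sums of 12 sinusoidal endothelial and 20 leukocyte genes overlapped, with Cd8a and Ms4a1 listed at 0 in at least 1 CD library. Erythroid genes summed to 247 and 502 in the LKO and to 85.9 and 419.8 in the f/f libraries and followed single libraries. Of 12 genes of the exocrine pancreas, 10 were listed at 0 in all 4 CD libraries, while Cela1 was at 6.18 and 4.86 against 9.85 and 10.8 FPKM. Ecm1 differed by -0.30 without the second LKO CD library, where 0 stellate cell genes passed this p. The part of cell content in the differences above was not tested.

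Some of the differences described above rested on 1 library and moved by over 1.5 times when it was left out, as did 36 named genes in all. Without the first LKO CD library, Moxd1 differed by -1.18, Id3 by 0.80, Orm2 by 0.85, Lpin2 by -0.51, Manf by -0.47, Usp2 by -0.40, Per1 by -0.22, Per2 by -0.14, Trf by 0.35 and Hsd3b7 by 0.17, and of these Moxd1 and Lpin2 kept an unadjusted limma p under 0.05. Without the second, Fbf1 differed by 0.36, Scap by 0.31 and Acaa1a by 0.15, and Scap kept it. Without the first f/f CD library, Nr1i3 differed by -0.18 and Slc16a1 by 0.17. Without the second, Ccnd1 differed by -0.24, Hp by 0.24, Apoa1 by 0.20, Bdh1 by 0.12, Lgr5 by -0.25 and Trf by 0.42. None of these 6 or of the former 2 passed an unadjusted p of 0.05 there.

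The genotype difference was also set against that on the HFD, which uses other libraries of both genotypes. Of the 10056 genes, 871 (8.66%) passed an unadjusted p of 0.05 for the difference between the diets, beside 8.35% of all genes tested, and 0 passed after adjustment, beside 0.0344% of all genes tested, all by limma. Of the 121 CD genes with higher values, 66 were separated in the same direction on the HFD, 9 in the opposite one and 46 overlapped, and their median log2 difference was 0.63 on CD and 0.27 on the HFD. Of the 115 with lower values, 40 were separated in the same direction, 8 in the opposite one and 67 overlapped, with medians of -0.64 and -0.09. Over all 10056 genes, 19.0% were separated higher and 24.1% lower on the HFD.

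Genes separated in the same direction on both diets included Lpin1, Cyp7a1, Ciart and Usp2 with lower values, and Cidec, Insig2, Me1, Fitm1, G0s2, Apoa4 and Pltp with higher values. Insig2 was at 157 and 156 FPKM in the LKO and 82.4 and 81.05 in the f/f libraries on the HFD, with a log2 difference of 0.94. Me1 differed by 0.83 and Cidec by 1.70 on the HFD. In contrast, Il6ra was at 14.98 and 17.8 in the LKO and 19.2 and 15.7 in the f/f libraries on the HFD, with overlap, and the change of its genotype difference from CD to the HFD had an unadjusted p of 0.000951. Foxo1 was at 11.5 and 12.3 against 14.9 and 11.95 there, with an unadjusted p of 0.00143 for that change. Both genes were named by their values on CD, which also enter this test, so that a small p was favored. Neither passed it after adjustment.

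The 236 CD genes were also read across all 8 libraries, which is a description, since separation on CD chose them. Of the 115 genes with lower values, both f/f CD libraries lay above all 6 other libraries in 67, and both LKO CD libraries lay below all 6 others in 52. Of the 121 with higher values, both f/f CD libraries lay below all 6 others in 49, and both LKO CD libraries lay above all 6 others in 60. Over all 10056 genes, the shares were 9.82% and 6.94% for the first 2 patterns and 6.11% and 7.80% for the last 2. Each pattern requires separation on CD, so these shares are no like background for genes chosen by it. Among all 2378 genes separated lower on CD, 987 and 698 showed the first 2 patterns. Among all 2092 separated higher, 614 and 784 showed the last 2. Tsc22d3 shows the first pattern, at 107 and 108 FPKM in the f/f CD libraries and 55.4 to 72.1 in the other 6. Id2 shows the last, at 151 and 115 in the LKO CD libraries and 43.7 to 76.2 in the other 6.

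**Figure D5:**
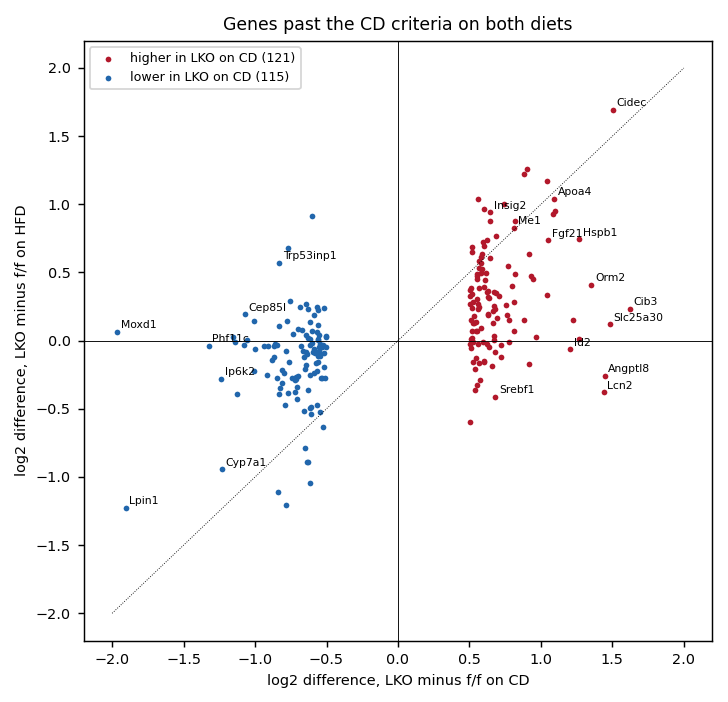
Log2 difference of LKO minus f/f on CD (horizontal axis) and on the HFD (vertical axis) for the 121 higher (red) and 115 lower (blue) CD genes, with a dotted line where both are equal; the values on CD chose the genes. Lpin1, Cyp7a1, Cidec and Insig2 have the same sign on both diets, whereas Angptl8, Id2 and Phf11c lie near or across the line of no difference on the HFD.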

How the data were processed

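Liver poly(A) RNA was sequenced in 8 libraries, 2 for each of 4 groups, and the deposited table holds FPKM that the authors estimated with Cufflinks after adapter removal with cutadapt 1.0, trimming at a PHRED score of 20 and alignment to GRCm38 with TopHat2 2.0.7. The Cufflinks version and the annotation release are not given in the sources used here. FPKM are not counts, so no count model was run, and the depth per library is unknown. Intervals that need it are not given.

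Genes that exceeded 1 FPKM in any library were taken as log2(FPKM + 1), which understates the change of low genes, and quantile normalized. Genotype differences were fitted with limma 3.58.1 (R 4.3.3) in 1 model of 4 groups with a variance trend, and p-values were adjusted by the Benjamini-Hochberg method over 11634 genes. The residual degrees of freedom were 4 and the prior degrees of freedom 2.80. Per-library values in the text are deposited FPKM, before normalization, and separation was judged on them. The study's permutation procedure was not run. Symbols came from GENCODE M21 by identifier for 9966 of the 10056 genes, and promoters from RefSeq on GRCm38.p6.

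Named genes were those with an adjusted p under 0.05, the 15 largest differences in each direction among separated genes with an unadjusted p under 0.05, the 8 largest of these at a mean of at least 100 FPKM, at most 4 genes of each of 60 lists by smallest p, and the ROR, PPAR and clock genes. Others named with a list, such as Saa1, Hspa5 or Fasn, were chosen after their values were seen. The printed promoters were also chosen later, since no promoter held the element that was to select them. The genes and lists were chosen with earlier results of these data known. The labels do not say whether same-numbered libraries were paired, and the main fit did not pair them. The deviations of same-numbered libraries had a Pearson's r of 0.0295 on CD and 0.0221 on HFD. With 2 libraries per group this cannot decide the question. Alternatives were the normalization, the pseudocount, the filter, the variance trend, the libraries in the fit, a replicate block and each library left out in turn. The steps were tested on simulated data. Figures were drawn with matplotlib 3.10.9. Values of some named genes are not reported here.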

Additional observations from a re-analysis of the deposited data

Results flagged for a closer look

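For 13 of 241 named genes (5.39%) the 2 LKO libraries lay on 1 side of the f/f libraries on CD and on the other side on the HFD, with an unadjusted limma p under 0.05 on CD and for the difference between the diets. The same held for 186 of all 10056 genes (1.85%), and the named genes were chosen in part by their p on CD. Of genes with such a p on CD, it held for 9.77% of the named and 14.6% of all. None of the 13 passed after adjustment. On the HFD Angptl8 was at 17.5 and 17.9 FPKM in the LKO and 20.995 and 22.4 in the f/f libraries, against 33.1 and 30.3 and 13.03 and 9.56 on CD. Srebf1 was at 34.3 and 30.9 in the LKO and 40.4 and 48.99 in the f/f libraries on the HFD. Cebpa was at 71.6 and 76.3 and 104 and 98.5 there, and Trp53inp1, with lower LKO values on CD, at 20.1 and 19.98 and 16.02 and 11.1.

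The log2 genotype difference on the HFD minus that on CD was -1.70 for Angptl8, -1.09 for Srebf1, -0.87 for Cebpa and 1.40 for Trp53inp1. The unadjusted p-values by limma were 4.74e-05, 0.000747, 0.00014 and 0.000317 in this order. It was negative for Hp at -0.64, Prodh at -0.47, Fgfr4 at -0.38 and Gcgr at -0.25. It was positive for Ccng2 at 0.66, Lgr5 at 0.86, Timd4 at 0.73, Abcc2 at 0.41 and Ccnd1 at 0.79. Timd4 marks Kupffer cells and Lgr5 pericentral hepatocytes, and the part of cell content was not tested.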

How the results depend on the processing

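Of the 134 named genes with an unadjusted p under 0.05, 3 to 26 lost that call under the 9 alternatives other than leaving out a library, the most in the fit of the 4 CD libraries, and 12 to 52 with 1 library left out, the most without the second f/f CD library. No called gene changed sign under these alternatives. The count with an adjusted p under 0.05 was 1, and was 10 when only the 10056 genes were tested, 8 when genes listed at 0 in any library were left out (chosen after the data were seen) and 0 in the fit of the 4 CD libraries, which had 536 higher and 490 lower genes at an unadjusted p of 0.05. It was 1 to 3 with 1 library left out. Fewer genes tested, or fewer libraries, set these alternatives apart. The genes added by testing only the 10056 were Ell2, Lbp, Noct, Il6ra, Foxo1, Angptl8, Pcdh1, Cib3 and Phf11c.

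A pseudocount of 0.1 raised the counts of separated genes past 0.5 from 147 to 262 higher and from 133 to 220 lower, and with 1 library left out they were 147 to 262 and 132 to 236. With 1 library left out, the counts at an unadjusted p of 0.05 were 450 to 646 higher, 446 to 609 lower and 577 to 941 for the difference between the diets. The same range of counts of list members was 2 to 11 higher for acute-phase proteins, 2 to 8 lower for the unfolded protein response, 2 to 7 lower for clock output, 2 to 5 lower for cytochrome P450 genes, 1 to 5 lower for xenobiotic receptors, 2 to 5 lower for insulin signaling and 3 to 4 higher for apolipoproteins. The replicate block gave 1 gene after adjustment, 626 higher and 623 lower genes, and 5 of the 134 named genes lost their call under it. In the labels, same-numbered libraries share only a number. No depth is known, so that low genes cannot be ranked by precision.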

Other observations

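Several smaller groups showed genes at an unadjusted limma p under 0.05 on CD without passing the adjusted threshold. Of 17 genes of iron handling, 4 were higher and 0 lower in the LKO libraries, beside 6.41% and 6.27% of all 10056 genes, and without the second f/f CD library 0 were higher. Tfr2, a sensor of transferrin iron, was at 121 and 119.6 FPKM in the LKO libraries and 110.3 and 97.7 in the f/f libraries, and Steap3, a ferrireductase, at 7.09 and 7.29 against 5.89 and 4.76 FPKM, with log2 differences of 0.21 ± 0.08 and 0.38 ± 0.12. In the list of 16 genes of the urea cycle and glutamine, Nags, which makes the activator of the first step, was higher at 26.9 and 26.2 against 22.5 and 19.1 FPKM, and the glutamine carrier Slc38a2 was lower at 47.7 and 50.2 against 61.6 and 73.7 FPKM. Gldc, of glycine breakdown, was higher at 45.9 and 31.6 against 26.8 and 26.5 FPKM.

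Of 36 phase II enzymes, 3 were lower and 1 was higher, beside 6.27% and 6.41% of all 10056 genes, and without the second f/f CD library 0 were lower. Sult1d1, a sulfotransferase, was at 65.3 and 49.9 against 81.1 and 89.3 FPKM in the LKO and f/f libraries and differed by -0.57 ± 0.16, and Gstm4, which shares sequence with its paralogs, was at 28.4 and 24.9 against 18.2 and 17.3 FPKM and differed by 0.58 ± 0.11. In retinoid metabolism Bco1, which cleaves beta-carotene, was lower at 1.13 and 1.23 against 2.23 and 2.21 FPKM. Among 15 immediate early genes 2 were lower and 2 higher. Zfp36, which destabilizes cytokine mRNA, was at 50.5 and 56.6 against 69.2 and 68.9 FPKM, and Ccn2 and Ccn1, both targets of YAP, lay in opposite directions at 2.78 and 1.95 against 3.13 and 5.46 FPKM and 7.26 and 4.66 against 3.43 and 1.85 FPKM. With 1 library left out, 1 to 4 of the immediate early genes were higher and 1 to 2 lower. Without the second f/f CD library, Ccn1 differed by 0.62, Ccn2 by -0.32, Tfr2 by 0.14 and Steap3 by 0.25, and without the second LKO CD library Sult1d1 differed by -0.38. Gldc differed by 0.24 without the first LKO CD library. All of these had an unadjusted limma p above 0.05 there.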
